A study of Mus musculus with 53 samples.

Results

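The Wnt ligands, Frizzled receptors, secreted antagonists and a few closely tied genes were followed across mouse epithelial tissues. A gene was a member if its symbol in the platform annotation was Wnt, Fzd, Sfrp or Dkk followed by a number, with a letter suffix allowed, or if it was Lef1, Axin2, Wif1, Lgr5, Rspo1, Rspo2 or Rspo3. The rule found 44 genes in each of 2 deposited tables, out of 19938 named genes in the Gene ST table and 18194 in the table of older 3' type arrays. By role these were 19 Wnt ligands, 10 Frizzled receptors, 4 secreted Frizzled-related proteins, 5 Dickkopf proteins and Wif1, 4 R-spondins and Lgr5, and 2 genes of the response, Lef1 and Axin2.

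Total RNA was measured on 53 arrays in 18 groups. Gene ST arrays covered whole cornea at E14.5, E15.5, E17.5, P3, P7, P14 and P28 as well as E18.5 trachea and lung. The 3' table covered dorsal skin and bladder, each on embryonic days 14.5, 16.5 and 18.5, together with E18.5 stomach, esophagus and the proximal part of the small intestine. Each group had 3 arrays except E14.5 bladder, which had 2. The first and second E14.5 skin arrays share a number in their titles, and the second is marked "re", so they may be 1 sample run again. Their log2 values differed with an SD of 0.37, against 0.59 and 0.55 from the third, and counts with both averaged to 1 sample are given beside the results they touch. The mice were of the CB6 strain and labelled wildtype in 17 groups, whereas the E18.5 bladders were Get1 +/-, that is, carrying 1 mutant copy of the transcription factor gene Get1. In E18.5 bladder, genotype and tissue therefore cannot be told apart. Arrays of cornea, of bladder and of E18.5 skin were taken from earlier work of the same laboratory, per the series text. Values are levels on a log2(intensity + 16) scale, on which 4 is the floor and the median gene lay at 8.12 in the Gene ST table and 6.68 in the 3' table. Differences are log2 differences on that scale, so changes of dim genes are understated. Each gene has its own probes, so levels of different genes do not show which has more transcript. Whether the arrays of a group stem from different animals is not in the labels, so p-values rest on how far these arrays scatter, and that scatter may be technical. In bulk tissue, fewer cells of a type and less RNA per cell cannot be told apart.

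Wnt proteins are secreted lipid-bearing signals that bind Frizzled receptors and, with an Lrp co-receptor, stabilise β-catenin, which acts in the nucleus with Lef and Tcf factors. Sfrp proteins and Wif1 bind Wnts outside the cell, Dickkopf proteins block the Lrp co-receptor, and R-spondins acting through Lgr receptors keep Frizzleds at the cell surface. Axin2 is a widely used target of the β-catenin branch and also dampens it, while Wnt5a is best known for signalling without β-catenin. In skin, Wnt signalling starts hair follicles, and in the eye the antagonist Dkk2 is needed for the corneal epithelium to keep its identity.

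**Figure D1:**
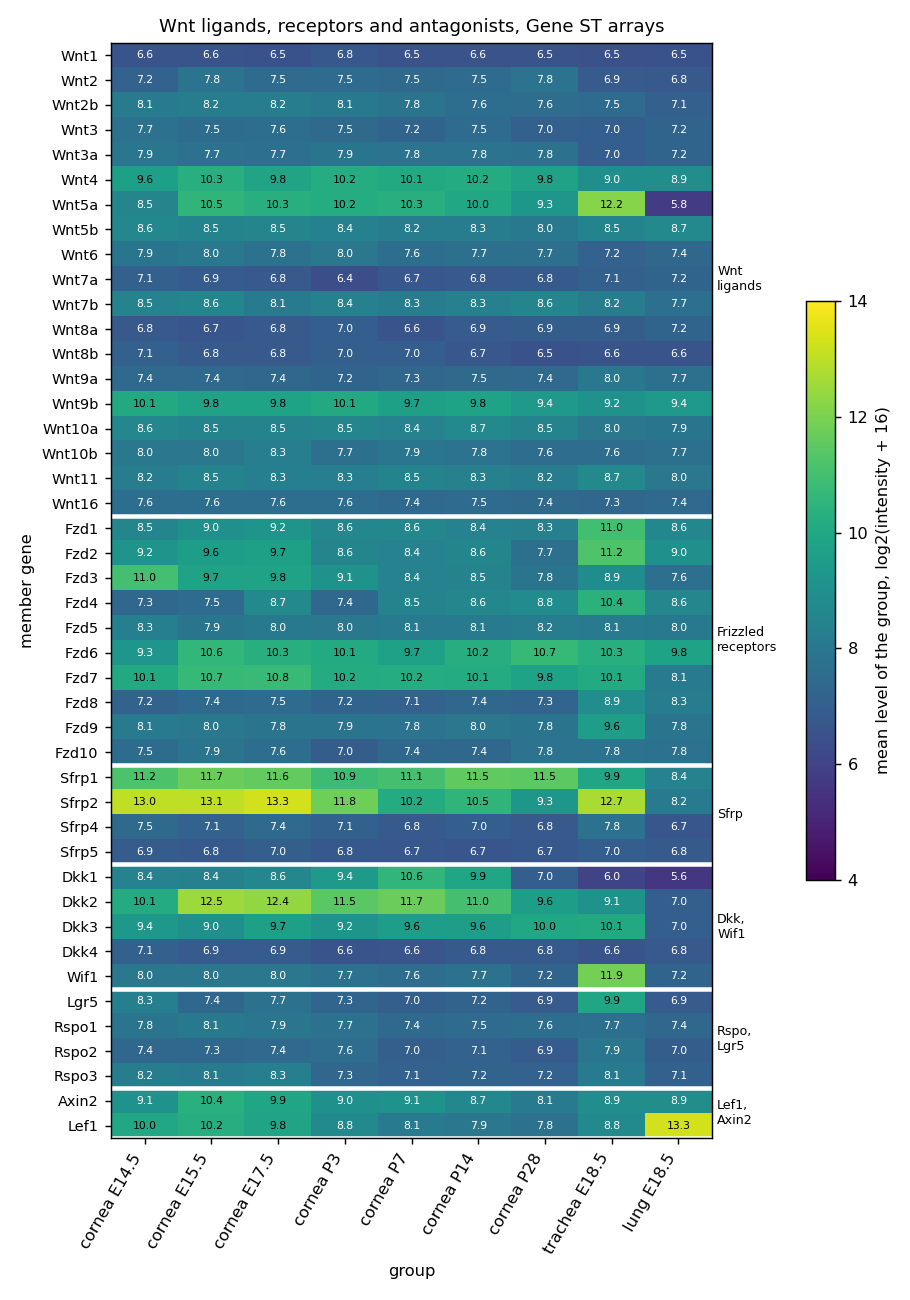
Mean level, as log2(intensity + 16), of each of the 44 members in the 9 groups of Gene ST arrays, 3 arrays per group, with members ordered by role. Sfrp2 and Dkk2 are high in embryonic cornea and lower at P28, Wnt5a and Wif1 are high in trachea, and Lef1 is high in the lung-labelled arrays.

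Some arrays carried genes of tissues other than their label. Fits without the E14.5 skin and small intestine arrays concerned are given beside those results, and for the others the part of these genes was not tested. The arrays labelled lung had all 10 measured thymus genes above the median gene, with a summed intensity of 70430 to 72001 against 1349 to 1397 in trachea, while 2 of 5 lung epithelium genes were above it. Besides genes of cartilage, a part of the trachea, the trachea arrays held skeletal muscle genes. The E14.5 cornea arrays held lens crystallins, summed to between 8223 and 88257, against 1032 to 1368 at E15.5. Lens genes also reached between 4954 and 11292 at P3, 1251 and 64460 at P14 and 4311 and 32938 at P28, and the 5 measured retina genes between 4133 and 14989 at P3 and 1401 and 12001 at P14, against 464 to 568 at E15.5. Among E14.5 skin arrays, the first and second carried intestinal genes, with the apolipoprotein gene Apoa1 at 13.06 and 13.05 against 5.38 on the third. The third small intestine array carried stratified epithelial genes, with keratin Krt5 at 4.14, 4.45 and 12.53 on the 3 arrays, and less of the intestinal factor Cdx2 (12.18, 11.91 and 7.18). In the 3' table, 9 arrays (E16.5 and E18.5 skin and small intestine) stood apart. They correlated at 0.614 to 0.799 with the other 17 arrays, against 0.879 to 0.978 between arrays of different groups within those 17. Different groups within the 9 correlated at 0.763 to 0.959. E16.5 skin and small intestine were at 0.766 to 0.871, overlapping the range between the 9 and the 17. Comparisons across this divide cannot be told apart from it and are given last, as values.

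In whole cornea, 11 of 44 members differed between ages (limma F test over 7 ages, a Benjamini-Hochberg adjusted p below 0.05 with the highest mean 2-fold or more above the lowest), where 21.7% of all genes did. The median distance between lowest and highest mean was 0.65 for members and 0.55 for all genes, so the list as a whole was close to the background. By role the 11 were 1 of 19 ligands, 3 of 10 receptors, 1 of 4 Sfrp genes, 2 of 5 in the Dickkopf and Wif1 group, 2 of 4 R-spondin and Lgr5 genes, and both Lef1 and Axin2. The larger part of the change after E15.5 was a decline. From E15.5 to P28, 8 members fell and 1 rose, where 5.4% of all genes fell and 4.9% rose by the limma contrast, 10.3% together, and the median difference was -0.32 for members and -0.05 for all genes. The summed lens genes were higher on each P28 array than at E15.5, as were the retina genes (1613 to 3771 at P28), and their part in this comparison was not tested.

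Sfrp2, which binds Wnts outside the cell and is a typical gene of connective tissue cells, changed most. Its level was 11.94, 13.32 and 13.89 at E14.5. The E15.5 arrays read 13.50, 12.91 and 12.76, and those of E17.5 12.99, 13.37 and 13.61. It stood at 12.02, 11.80 and 11.56 at P3, 10.15, 9.74 and 10.61 at P7, 10.39, 10.86 and 10.33 at P14, and 9.72, 8.90 and 9.23 at P28. The embryonic arrays of E15.5 and E17.5 were all above the postnatal ones, and the P28 arrays were the lowest of all 21. From E15.5 to P28 Sfrp2 fell by 3.77 (SE 0.50, 13.7-fold, limma adjusted p = 4e-06). Sfrp1, of the same family, lay between 10.76 and 11.85 on all cornea arrays and was not called between ages. Genes of mesenchyme were lower at P28 as well: the 6 genes of that list summed to between 22255 and 26906 at E15.5 and between 2699 and 3611 at P28, and their part in the decline was not tested. The 3 genes of the corneal stroma list summed to between 23853 and 27716 and between 11577 and 14616 at the same ages.

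Dkk2, the Dickkopf antagonist tied to corneal identity, had its highest means at E15.5 and E17.5 and its lowest at P28. It read 11.89, 10.42 and 8.12 at E14.5. The E15.5 arrays were at 12.65, 12.33 and 12.65 and the E17.5 arrays at 12.12, 12.76 and 12.20. It read 11.42, 11.67 and 11.27 at P3, 11.97, 11.26 and 11.90 at P7, and 11.52, 11.01 and 10.61 at P14. At P28 it was 9.70, 9.70 and 9.48, below every array from E15.5 to P14. From E15.5 to P28 Dkk2 fell by 2.92 (SE 0.52, limma adjusted p = 0.00012).

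Dkk1, another Dickkopf antagonist, followed a different course. It lay between 8.16 and 9.23 on the 9 embryonic arrays, at 8.97, 9.48 and 9.62 at P3 and at 10.67, 10.43 and 10.59 at P7. It was 9.56, 10.43 and 9.60 at P14 and 6.75, 5.86 and 8.38 at P28. The P7 mean was the highest of the 7 ages, and the 3 P28 arrays were spread widely but lay below every P14 array. Dkk1 was the 1 member called between P14 and P28, where 4.47% of all genes were, and it fell by 2.87 (SE 0.40, 7.30-fold, limma adjusted p = 2.8e-05). Its lower level at P28 than at E15.5 (-1.39, limma adjusted p = 0.01) rested on overlapping groups and was not called without the second P28 array, at -0.83.

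Lef1 and Axin2 declined together. Lef1, a nuclear partner of β-catenin, was 9.84, 10.60 and 10.30 at E15.5 and 7.88, 7.70 and 7.72 at P28, with no overlap. It differed by -2.48 (SE 0.29, limma adjusted p = 6.4e-07), and its levels from P7 on all lay between 7.70 and 8.30. Axin2, the feedback target, was 10.25, 10.41 and 10.42 at E15.5 and 8.20, 8.03 and 8.22 at P28. It differed by -2.21 (SE 0.34, limma adjusted p = 2e-05), and again the groups did not overlap. Between them, at P3, Lef1 stood at 8.65, 8.99 and 8.66 and Axin2 at 9.00, 9.10 and 8.97.

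**Figure D2:**
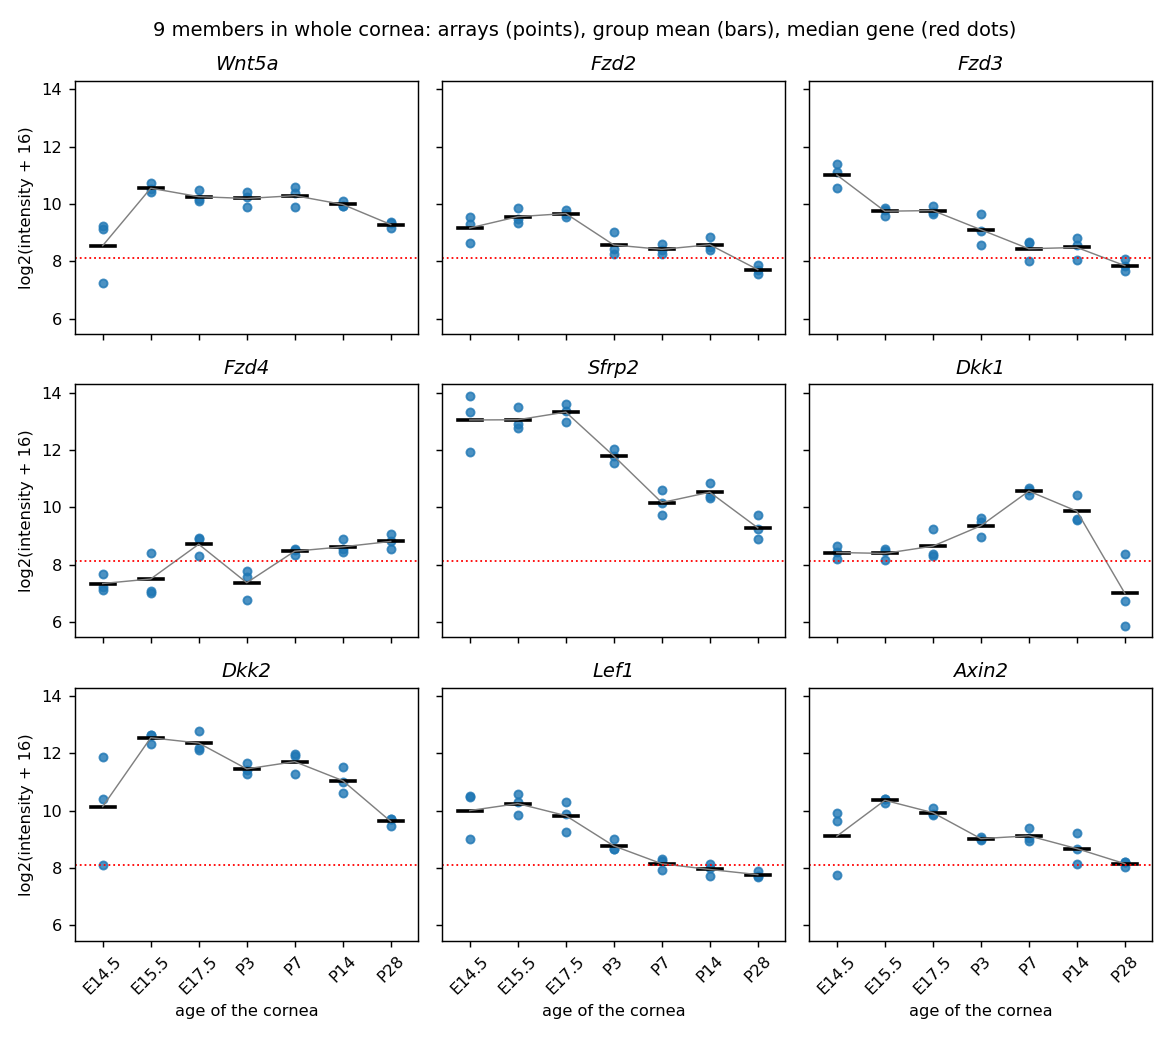
Level of 9 members in whole cornea, as log2(intensity + 16), at 7 ages, with 3 arrays per age as points, the mean as a bar and the median gene of the table as a dotted line. Sfrp2, Dkk2, Lef1, Axin2, Fzd2 and Fzd3 decline towards P28, Fzd4 is higher at P28 than at E15.5, and Dkk1 is highest at P7.

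Promoter sequences of Lef1 and Axin2 are shown because these genes declined together, and that of Dkk1 because it held the Lef/Tcf-type motif searched for. Each run is the 250 bases before the gene's start, 5′ to 3′ on the gene's strand, from RefSeq on GRCm38.p6. Capitals mark CTTTGA or its reverse complement TCAAAG.
Lef1: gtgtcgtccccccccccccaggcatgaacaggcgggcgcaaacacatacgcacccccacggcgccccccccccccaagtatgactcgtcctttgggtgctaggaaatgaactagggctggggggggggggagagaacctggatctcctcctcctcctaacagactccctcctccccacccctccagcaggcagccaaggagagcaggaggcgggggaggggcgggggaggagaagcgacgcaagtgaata
Axin2: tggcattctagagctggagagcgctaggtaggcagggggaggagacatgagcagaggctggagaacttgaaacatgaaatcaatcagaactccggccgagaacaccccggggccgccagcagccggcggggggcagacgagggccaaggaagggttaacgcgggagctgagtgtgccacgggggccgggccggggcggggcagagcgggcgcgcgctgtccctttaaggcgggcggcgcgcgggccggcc
Dkk1: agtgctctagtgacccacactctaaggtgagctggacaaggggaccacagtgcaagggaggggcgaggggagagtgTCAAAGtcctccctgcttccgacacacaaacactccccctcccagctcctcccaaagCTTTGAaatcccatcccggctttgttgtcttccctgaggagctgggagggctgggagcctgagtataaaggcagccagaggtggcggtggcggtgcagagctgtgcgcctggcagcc
The Lef1 run is chr3:131110047-131110296 on the plus strand, the Axin2 run is chr11:108920099-108920348 on the plus strand, and the Dkk1 run is chr19:30549497-30549746 on the minus strand. Both Dkk1 matches lie in this run, beginning 174 and 117 bases before the start. Over windows of 300 bases reaching 50 bases past the start, the motif was found on either strand in 3 of the 29 members with a promoter in the table (Dkk1, Fzd1 and Wnt11), or 10.3%. It was found in 16.2% of 27025 promoters of all genes, so members did not hold it at a higher share. A match is a run of letters and not a shown binding site.

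Among receptors, Fzd3, a Frizzled with known roles in axon growth, and Fzd2 declined, and Fzd4 went the other way. Fzd3 was 10.55, 11.10 and 11.38 at E14.5, 9.57, 9.80 and 9.87 at E15.5, and 8.07, 7.82 and 7.65 at P28. The 3 ages did not overlap, and P28 was below E15.5 by a difference of -1.90 (SE 0.24, limma adjusted p = 1.9e-06). The 3 measured genes of neurons and Schwann cells summed to between 1919 and 15206 at E14.5, 479 and 1227 at E15.5 and 388 and 435 at P28, and their part in the Fzd3 values was not tested. Fzd2 was 9.47, 9.32 and 9.87 at E15.5 and 7.85, 7.56 and 7.71 at P28, a difference of -1.85 (SE 0.20, limma adjusted p = 1.9e-07) with no overlap. Fzd4, the receptor for norrin in retinal vessels, was 8.41, 7.01 and 7.07 at E15.5 and 8.81, 8.54 and 9.08 at P28. It rose by 1.31 (SE 0.29, limma adjusted p = 0.0011), although the first E15.5 array was near the P28 range and the E17.5 arrays (8.92, 8.32 and 8.89) were about as high. The other 7 receptors were not called over the 7 ages, and Fzd6 and Fzd7 had means of 9.3 to 10.7 and of 9.8 to 10.8.

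Wnt5a was the 1 ligand of 19 called over the ages. It was 9.24, 9.14 and 7.25 at E14.5, 10.41, 10.52 and 10.73 at E15.5, between 9.88 and 10.59 from E17.5 to P14, and 9.15, 9.34 and 9.36 at P28. The middle ages thus formed a plateau above both ends. Its difference between P28 and E15.5 was -1.27 (SE 0.35, limma adjusted p = 0.0073). Wnt4 and Wnt9b, a pair of epithelial ligands in other organs, kept means between 9.6 and 10.3 and between 9.4 and 10.1. Lgr5, the R-spondin receptor known from stem cells, was 8.04, 8.24 and 8.68 at E14.5 and 6.87, 6.91 and 6.87 at P28. Rspo3, an R-spondin, was 8.62, 8.47 and 7.61 at E14.5 and 7.08, 7.20 and 7.18 at P28. Both differed over the 7 ages in the limma F test, with distances of 1.44 (adjusted p = 8.5e-07) and 1.14 (adjusted p = 2.1e-06) between the lowest and highest mean.

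The step from E14.5 to E15.5 coincided with a change in what the samples held. Dkk2, Wnt5a, Axin2 and Fzd6 were higher at E15.5 and Fzd3 lower, 5 of 44 members where 5.3% of all genes were higher and 2.26% lower, 7.56% together. Dkk2 rose by 2.40 (SE 0.52, limma adjusted p = 0.0013), Wnt5a by 2.00 (SE 0.35, limma adjusted p = 0.00014), Fzd6 by 1.36 (SE 0.43, limma adjusted p = 0.023) and Axin2 by 1.25 (SE 0.34, limma adjusted p = 0.0075), while Fzd3 differed by -1.27 (SE 0.24, limma adjusted p = 0.00037). The third E14.5 array was the lowest of the 3 for Dkk2, Wnt5a, Fzd6 and Axin2. Without it Dkk2 (1.39), Wnt5a (1.36) and Fzd3 (-1.08) were called and Axin2 (0.57) and Fzd6 (0.53) were not. Fzd6 was also not called without the third E15.5 array. With only these ages in the fit, Wnt5a and Fzd3 were called and Dkk2, Axin2 and Fzd6 were not. Beside these values, the 5 corneal epithelium genes summed to between 4379 and 7109 at E14.5 and between 22309 and 32524 at E15.5, and the 6 mesenchyme genes to between 1495 and 7911 and between 22255 and 26906. The 4 measured erythroid genes went the other way, from between 34624 and 52488 to between 648 and 2213, as did the lens genes and those of neurons and Schwann cells. The part of these lists in the member changes was not tested.

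Trachea and the lung-labelled arrays at E18.5 differed in 15 members, 14 higher in trachea and 1 lower, where 16.1% of all genes were called, 10.8% higher and 5.26% lower. The median difference was 0.36 for members and -0.06 for all genes. Receptors (6 of 10), Sfrp genes (3 of 4) and the Dickkopf and Wif1 group (3 of 5) took most of the calls, and ligands 1 of 19. Because the lung-labelled arrays had thymus genes at high levels, these values compare trachea with what those arrays held.

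Wnt5a gave the widest gap. It was 12.16, 12.18 and 12.19 in trachea and 5.10, 6.06 and 6.21 on the lung-labelled arrays, a difference of 6.39 (SE 0.35, 83.7-fold, limma adjusted p = 5.3e-13). The trachea arrays were nearly identical and far above the others. Wif1, a secreted Wnt binder found in cartilage, was 11.75, 11.85 and 12.18 in trachea against 7.22, 7.14 and 7.26, a difference of 4.72 (SE 0.14, limma adjusted p = 5.4e-18). Sfrp2 was 12.81, 12.62 and 12.70 against 6.39, 8.87 and 9.22, a difference of 4.55 (SE 0.50, limma adjusted p = 1.1e-07) with wide spread on the lung-labelled side. The mesenchyme list summed to between 41041 and 42990 in trachea and between 7918 and 12179 on the lung-labelled arrays, and the 4 cartilage genes to between 32045 and 34675 and between 1097 and 1135. Their part in these differences was not tested.

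Dkk3, a Dickkopf relative, was 10.05, 9.99 and 10.21 in trachea and 6.84, 7.46 and 6.61 on the lung-labelled arrays, a difference of 3.11 (SE 0.27, limma adjusted p = 2e-09). Lgr5 was 9.81, 9.92 and 10.00 against 6.84, 6.83 and 6.90, a difference of 3.06 (SE 0.15, limma adjusted p = 9.4e-14). For both, the groups were far apart. The 6 receptors called were all higher in trachea, by 2.32 for Fzd1, 2.21 for Fzd2, 2.01 for Fzd7, 1.81 for Fzd4, 1.78 for Fzd9 and 1.24 for Fzd3. Dkk2 (2.11) and Sfrp1 (1.44) were higher as well, and Sfrp4 (1.08) was not called without the third trachea array, at 0.71.

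Lef1 was the 1 member lower in trachea. It was 8.89, 8.82 and 8.70 there and 13.35, 13.38 and 13.27 on the lung-labelled arrays, a difference of -4.53 (SE 0.29, 23.1-fold, limma adjusted p = 1.2e-11). Lef1 is also a factor of developing T cells, and the thymocyte gene Rag1 was at 14.15, 14.25 and 14.25 on those arrays. Whether the thymus genes and Lef1 shared a source was not tested. Axin2 did not follow Lef1: it was 8.99, 8.89 and 8.86 in trachea and 8.93, 8.90 and 8.96 on the lung-labelled arrays, overlapping sets.

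**Figure D3:**
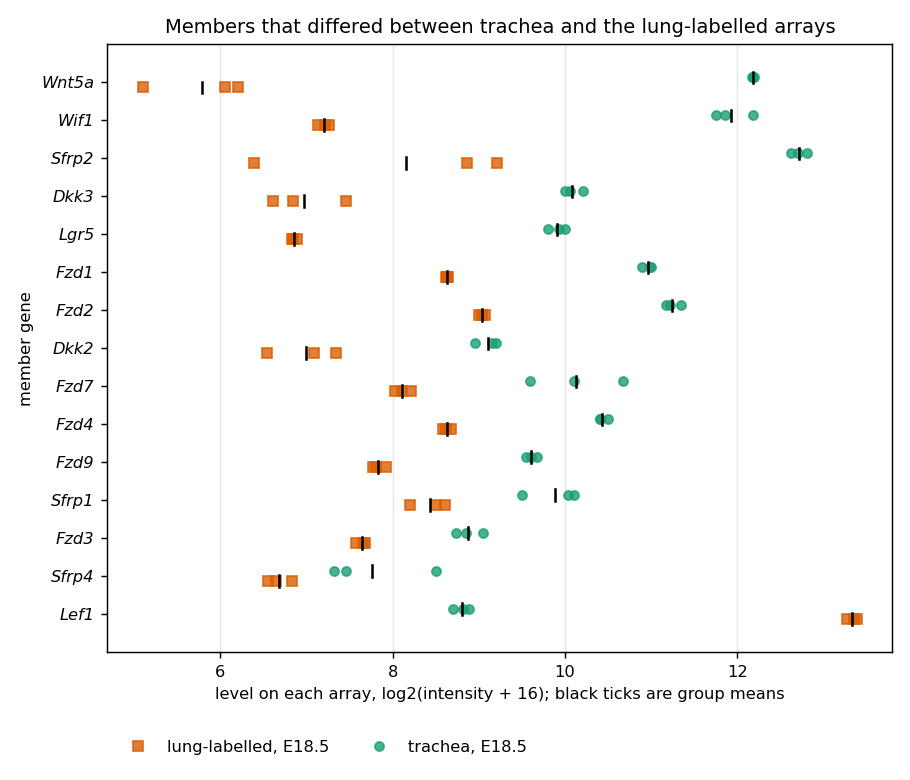
Level on each array, as log2(intensity + 16), of the 15 members called between trachea and the lung-labelled arrays at E18.5, with 3 arrays per group as points and group means as black ticks. Trachea is higher for 14 members and the lung-labelled arrays are higher for Lef1.

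Skin and bladder at E14.5 lay on the same side of the divide in the 3' table and differed in 23 members, 14 higher in skin and 9 lower, where limma called 14.1% of all genes, 8.11% higher and 6% lower. The median difference was 0.21 for members and 0.05 for all genes. Arrays of both groups did not overlap for 35 of 44 members, against 56.3% of all genes. Bladder had 2 arrays. Of the 44 members, 11 had means below the median gene in all 9 groups of the 3' table. Wnt1, Wnt3a, Fzd8 and Rspo2, called here, were among them, as were Fzd9, Wnt8b and Wnt10b, called in later comparisons. Of the ligands, Wnt3, Wnt6, Wnt7b and Wnt10a were higher in skin and Wnt1, Wnt2, Wnt3a and Wnt5b lower. The other members higher in skin were the antagonists Dkk1, Dkk4, Sfrp5 and Wif1, the receptors Fzd6, Fzd8 and Fzd10, Rspo1, Lef1 and Axin2, and the others lower were Dkk3, Sfrp1, Fzd1, Fzd2 and Rspo2.

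Wnt3, a ligand of the β-catenin branch, was 8.02, 8.64 and 8.92 in E14.5 skin and 4.13 and 4.00 in E14.5 bladder, at or just above the floor. The difference was 4.46 (SE 0.21, limma adjusted p = 4e-12). In the 5 groups other than E14.5 skin on that side of the divide, E14.5 bladder among them, Wnt3 had means of 4.06 to 4.35. Wnt10a, a ligand of hair and tooth buds, was 7.79, 7.74 and 7.80 in skin and 5.53 and 5.19 in bladder, a difference of 2.42 (SE 0.49, limma adjusted p = 0.00092). Wnt6 (1.01) and Wnt7b (1.18), both epithelial ligands, were above the threshold by little: Wnt6 was not called without the second bladder array or the first skin array, and Wnt7b was called in only 2 of 12 other settings. Wnt5b (-1.68), Wnt1 (-1.32), Wnt2 (-1.28) and Wnt3a (-1.02) were lower in skin, the last not called without the second or the third skin array. Wnt1 and Wnt3a were dim, with means of 4.36 and 5.66 over all arrays of the 3' table, where 4 is the floor. Wnt2, a ligand of mesenchyme in several organs, was 6.18, 6.25 and 6.09 in skin and 7.11 and 7.79 in bladder, and it was not called without the second bladder array, at -0.94.

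Antagonists split between both tissues. Sfrp5 was 8.34, 8.26 and 7.79 in E14.5 skin and 4.64 and 4.39 in bladder, a difference of 3.62 (SE 0.28, limma adjusted p = 1.1e-08). Dkk4, an antagonist known from early hair placodes, was 7.64, 7.55 and 7.47 against 4.54 and 4.00, a difference of 3.28 (SE 0.19, limma adjusted p = 9.3e-11). Dkk1 was 7.84, 7.76 and 8.09 against 6.09 and 4.40, a difference of 2.66 (SE 0.40, limma adjusted p = 4.5e-05). The skin arrays were above the bladder arrays for all 3 genes, and Wif1 (1.93) lay the same way. Dkk3 was lower in skin, at 6.53, 6.26 and 6.68 against 8.40 and 8.93, a difference of -2.17 (SE 0.29, limma adjusted p = 1.1e-05). Sfrp1 (-1.09) was lower too, although it was not called without the first bladder or the third skin array.

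Fzd10 was the receptor with the widest gap, at 7.57, 7.44 and 7.40 in E14.5 skin and 5.38 and 4.02 in bladder, a difference of 2.77 (SE 0.39, limma adjusted p = 2.2e-05). Fzd6, a Frizzled that orients hairs, was also higher in skin (1.55), though not called without the second bladder array. Fzd8 (1.07) was not called without the second bladder or the third skin array. Fzd2 (-1.58) and Fzd1 (-1.31) were lower in skin by their brightest probe set, and their second probe sets moved the other way. Fzd1 was also not called without the first bladder array. Rspo2, an R-spondin, was 4.09, 4.09 and 4.83 in skin and 6.67 and 6.62 in bladder, a difference of -2.31 (SE 0.37, limma adjusted p = 8.6e-05), again with a second probe set that moved the other way. Rspo1, another R-spondin, was higher in skin, at 6.50, 6.35 and 6.39 against 4.96 and 4.84, a difference of 1.51. Sfrp2 was 10.83, 10.85 and 10.84 in E14.5 skin and 12.09 and 11.95 in E14.5 bladder. The sets did not overlap, but its difference of -1.18 was not called (SE 0.60, limma adjusted p = 0.16). Over the 15 members called with a second probe set, the second moved the same way for 12.

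Lef1 was 10.54, 10.78 and 10.81 in E14.5 skin and 9.59 and 8.57 in bladder, a difference of 1.63 (SE 0.31, limma adjusted p = 0.00058). Axin2 was 9.47, 9.35 and 9.57 against 8.04 and 7.28, a difference of 1.81 (SE 0.26, limma adjusted p = 2.5e-05). Both were higher on each skin array. Beside these values, 7 epidermis genes summed to between 13441 and 18780 in skin and between 222 and 456 in bladder, and 5 smooth muscle genes to between 784 and 1534 and between 12182 and 15433. The 7 intestinal genes summed to between 63.2 and 14162 in skin, high on the first and second arrays. With the third skin array alone, which lacked the intestinal genes, 22 members were called, 20 of them among the 23, and the differences were 4.85 for Wnt3, 3.20 for Dkk4, 3.28 for Sfrp5 and 2.85 for Dkk1. In that fit the spread comes from the other groups, and the lone array is assumed to vary as they do, so it is no replicate check. With the first and second skin arrays averaged, 22 members were called, and Wnt7b (1.21) was not.

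Within bladder, from E14.5 to E16.5, limma called 0 of 44 members, and 0.341% of all genes. At an unadjusted p under 0.05, 7 members passed, as did 9.48% of all genes.

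Within skin, from E16.5 to E18.5, 5 members rose and 2 fell, where limma called 4.44% of all genes, 2.44% higher and 2% lower. Wnt10a was 5.37, 6.28 and 5.67 at E16.5 and 7.21, 7.96 and 7.73 at E18.5, and rose by 1.86 (SE 0.44, limma adjusted p = 0.0064). Dkk4 was 6.13, 6.02 and 6.08 and then 5.11, 4.85 and 4.80, and fell by 1.16 (SE 0.17, limma adjusted p = 5.5e-05). Both pairs of groups were separate. Dkk3 was 6.17, 6.38 and 6.27 and then 7.20, 7.49 and 7.91, and rose by 1.26 (SE 0.26, limma adjusted p = 0.0021). Fzd7 (1.31) rose as well. Wnt7b was 9.57, 9.69 and 9.65 and then 8.31, 8.49 and 8.56, a difference of -1.18 (SE 0.38, limma adjusted p = 0.044). Wnt7b lost its call whichever of the 6 arrays was left out, Fzd5 (1.14) when any of 5 was, and Lgr5 (1.05) without the first or the third E18.5 array. Dkk3 was the 1 call of 7 that was kept in all 11 other settings. Melanocyte genes, 5 in all, summed to between 1540 and 5045 at E16.5 and between 14740 and 22884 at E18.5.

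**Figure D4:**
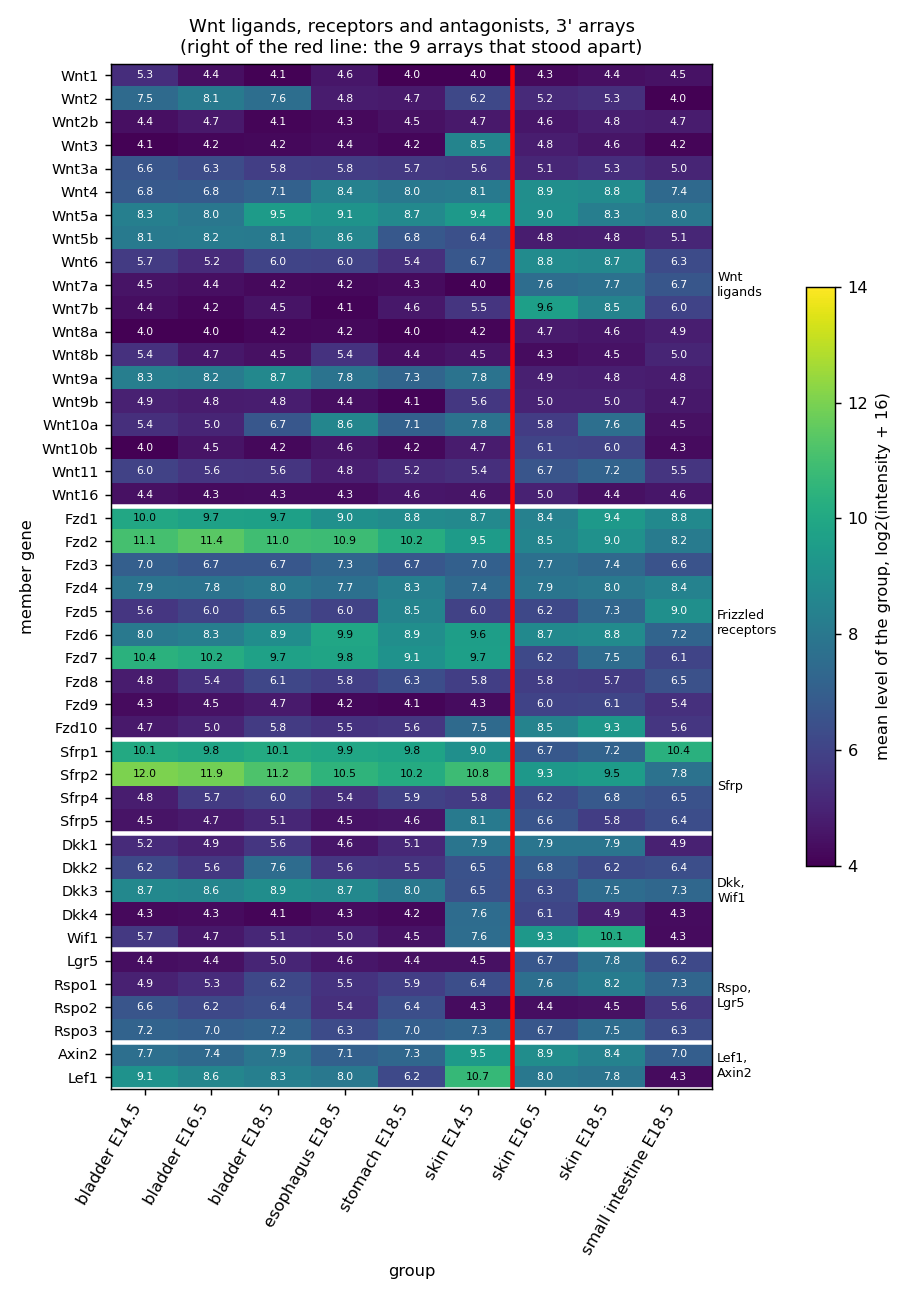
Mean level, as log2(intensity + 16), of each of the 44 members in the 9 groups of the 3' table, with 3 arrays per group and 2 for E14.5 bladder. Groups right of the red line are the 9 arrays that stood apart, and levels on opposite sides of it are not comparable. Wnt3, Sfrp5 and Dkk4 are high in E14.5 skin against E14.5 bladder, and Wif1 and Fzd10 in E18.5 skin against small intestine.

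At E18.5, bladder, esophagus and stomach were on 1 side of the divide. Over these 3 tissues 10 of 44 members differed (limma F test), where 17.3% of all genes did, with a median distance of 0.70 for members and 0.51 for all genes. Of the members, 4 were higher in 1 tissue than in each of the other two, where 6.86% of all genes were. Wnt2 was higher in bladder, at 7.60, 7.41 and 7.79, than in esophagus (4.73, 4.76 and 4.83) and stomach (4.28, 4.91 and 4.96), by at least 2.82 (limma adjusted p = 9.9e-09). Dkk2 was higher in bladder too, at 7.49, 7.27 and 7.89 against 5.39, 5.92 and 5.42 and against 5.53, 5.42 and 5.55, by at least 1.98 (limma adjusted p = 1.3e-06). Neither gene's bladder arrays overlapped the rest, and these bladders were the Get1 +/- ones.

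Stomach against esophagus gave 2 members higher and 4 lower, where limma called 7.05% of all genes, 4.25% higher and 2.8% lower. Fzd5, a receptor of gut epithelium, was 8.66, 8.47 and 8.46 in stomach and 5.64, 6.55 and 5.77 in esophagus, a difference of 2.55 (SE 0.34, limma adjusted p = 1.8e-05). Wnt5b was 6.64, 6.42 and 7.21 in stomach and 8.40, 8.77 and 8.58 in esophagus, a difference of -1.82 (SE 0.21, limma adjusted p = 3e-06). Lef1 was 6.19, 6.01 and 6.42 against 8.10, 8.08 and 7.88, a difference of -1.81 (SE 0.28, limma adjusted p = 0.00011). The groups were separate for all 3 genes. Wnt10a was higher in esophagus, at 8.06, 8.56 and 9.19, than in stomach, at 6.46, 7.57 and 7.32, a difference of -1.49 (SE 0.44, limma adjusted p = 0.024). Its call was lost without the stomach array labelled 1 or the esophagus array labelled 2 or 4. Rspo2 (1.04, overlapping groups) and Wnt8b (-1.02) were also called, and both were lost without the stomach array labelled 1. The Rspo2 call was kept in only 3 of 11 other settings and that of Wnt8b in 8 of 11. The stomach arrays held esophageal genes, 5 of 5 above the median gene and summed to between 13374 and 16453, against 16827 to 29195 in esophagus.

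Skin and proximal small intestine at E18.5 were both among the 9 arrays that stood apart, although these 9 were not a uniform set. Skin and intestine differed in 20 members, 17 higher in skin and 3 lower, where limma called 19.2% of all genes, 8.99% higher and 10.2% lower. The median difference was 0.67 for members and 0.04 for all genes. Wif1 was 10.31, 9.62 and 10.24 in skin and 4.23, 4.29 and 4.40 in intestine, a difference of 5.75 (SE 0.26, 53.9-fold, limma adjusted p = 4.9e-13). Fzd10 was 9.15, 9.36 and 9.33 against 4.95, 5.29 and 6.53, a difference of 3.69 (SE 0.35, limma adjusted p = 4.5e-08). Lef1 was 7.63, 8.18 and 7.74 against 4.01, 4.19 and 4.69, a difference of 3.55 (SE 0.28, limma adjusted p = 2.8e-09). Each was low on the first and second intestine arrays and higher on all skin arrays than on any intestine array. Axin2 was higher by less, 8.32, 8.59 and 8.43 against 6.99, 7.11 and 6.87, a difference of 1.46 (SE 0.23, limma adjusted p = 3.9e-05).

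Several ligands were higher in skin in the same comparison. Wnt10a was 7.21, 7.96 and 7.73 in skin and 4.00, 4.00 and 5.37 in intestine, a difference of 3.18 (SE 0.44, limma adjusted p = 6.9e-06). Wnt7b was 8.31, 8.49 and 8.56 against 5.17, 5.37 and 7.47, a difference of 2.45 (SE 0.38, limma adjusted p = 2.8e-05). Wnt6 was 8.63, 9.08 and 8.34 against 6.29, 6.23 and 6.39, a difference of 2.38 (SE 0.24, limma adjusted p = 1e-07). All 3 were separate between the groups, and Wnt10b (1.67), Wnt11 (1.66) and Wnt7a (1.07) lay the same way. Wnt2 was at the floor of 4.00 on the 3 intestine arrays and at 5.66, 5.34 and 4.99 in skin. Dkk1 was 7.50, 7.87 and 8.27 against 4.94, 5.02 and 4.80, a difference of 2.96 (SE 0.36, limma adjusted p = 1.4e-06).

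Lower in skin were Sfrp1, Fzd5 and Rspo2. Sfrp1 was 7.22, 7.40 and 6.91 in skin and 10.33, 10.22 and 10.50 in intestine, a difference of -3.18 (SE 0.21, limma adjusted p = 1.5e-10). Fzd5 was 6.72, 7.82 and 7.32 against 9.20, 8.97 and 8.73, a difference of -1.68 (SE 0.34, limma adjusted p = 0.00047). Both were lower on each skin array. Lgr5, the marker of intestinal stem cells, was 7.88, 7.49 and 7.90 in skin and 6.16, 6.45 and 6.01 in intestine, higher in skin by 1.55 (SE 0.26, limma adjusted p = 7e-05), but this was not called when its probe sets were averaged or with a pseudocount of 1.

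The third small intestine array, which carried stomach and esophagus genes, weighed on several of these values. Sfrp2 was 6.67, 6.58 and 10.10 on the intestine arrays against 9.67, 9.37 and 9.54 in skin, overlapping sets. Its difference of 1.75 (limma adjusted p = 0.013) became 2.91 without that array and was not called without the first or the second. Wnt4 was 5.96, 6.34 and 9.94 against 8.65, 9.12 and 8.67, and it was called without that array, at 2.66, but not with it. Without it 23 members were called, 20 higher and 3 lower in skin, and 18 of them were among the 20. Wnt7a and Rspo2 (-1.17) were then not called, nor were they without the second skin array. Wif1 (5.80), Fzd10 (4.16), Lef1 (3.75), Wnt10a (3.63), Fzd5 (-1.80) and Sfrp1 (-3.10) kept their direction.

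Comparisons across the divide gave many calls among members and among all genes alike. Skin at E16.5 against E14.5 called 19 of 44 members, 9 higher and 10 lower, where limma called 43.2% of all genes, 18.2% higher and 25% lower. Wnt7b (4.10), Wnt7a (3.58), Lgr5 (2.25) and Wnt6 (2.10) had the largest positive values, and Wnt3 (-3.73), Fzd7 (-3.43), Wnt9a (-2.93) and Lef1 (-2.72) the largest negative ones. The brightest Wnt7a probe set was at the floor of 4.00 on all E14.5 skin arrays, while another went from a mean of 6.40 in E14.5 skin to 5.20 in E16.5 skin. With the third E14.5 skin array alone, again with the spread of the other groups, 18 members were called, 17 of them among the 19, and with the first and second averaged 20 were. Skin against bladder at E16.5 called 27 members, 16 higher and 11 lower, where 48.9% of all genes were called, 21.9% higher and 27% lower. Over 5 tissues at E18.5, 30 of 44 members differed where 71.1% of all genes did, and 11 were higher in 1 tissue than in each of the others, where 12.1% were. Of those 11, skin held Wif1, Fzd10, Wnt7b, Wnt6, Dkk1, Wnt11, Lgr5, Wnt10b and Wnt7a, and bladder Wnt2 and Dkk2. Skin and bladder moved differently between E14.5 and E16.5 for 19 members, 8 higher and 11 lower in skin, where limma called 42.2% of all genes, 16.9% higher and 25.2% lower. In each of these comparisons tissue or age cannot be told apart from the divide.

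**Figure D5:**
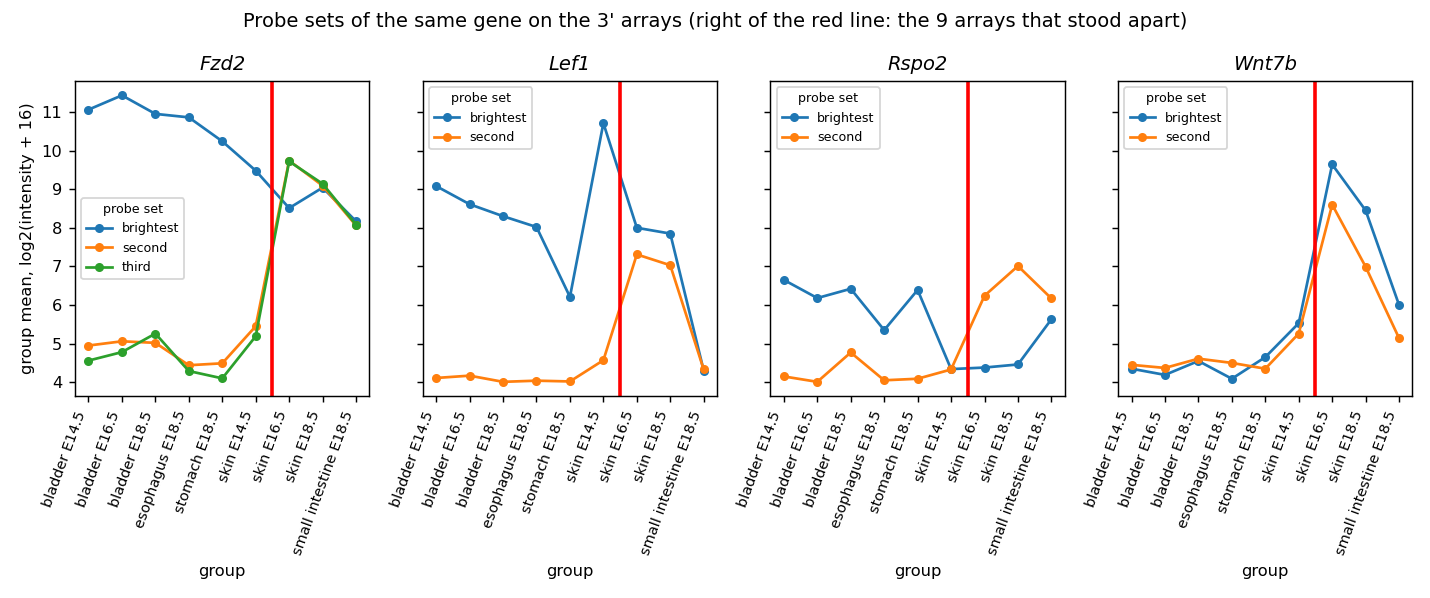
Group mean level, as log2(intensity + 16), of each probe set of Fzd2, Lef1, Rspo2 and Wnt7b over the 9 groups of the 3' table, with the 9 arrays that stood apart right of the red line. From E14.5 to E16.5 skin the brightest probe sets of Fzd2 and Lef1 go down and their others up, the second Rspo2 probe set goes up, and both Wnt7b probe sets go up.

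Probe sets of the same gene disagreed across the divide. For Fzd2 the brightest probe set went from a mean of 9.48 in E14.5 skin to 8.51 in E16.5 skin, a change that was not called. The others went from 5.45 to 9.74 and from 5.19 to 9.72. For Lef1 the brightest went from 10.71 in E14.5 skin to 8.00 in E16.5 skin and the second from 4.57 to 7.31. Wnt7b was alike by both, from 5.53 to 9.64 and from 5.26 to 8.60. Of 10 members called between E14.5 and E16.5 skin with a second probe set, the second moved the same way for 3. For skin against bladder at E16.5, also across the divide, it did so for 11 of 17. Within 1 side, the count was 5 of 5 for stomach against esophagus, 4 of 5 for E18.5 against E16.5 skin, and 12 of 14 for skin against small intestine. It was 12 of 15 for skin against bladder at E14.5.

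Other genes of the pathway were counted from a list of receptors, co-receptors, intracellular parts and targets, 42 measured in the Gene ST table and 41 in the 3' table. In cornea 10 of 42 differed over the ages, against 21.7% of all genes, a share near the background. From E15.5 to P28 8 fell, where 5.4% of all genes did, among them the Wnt inhibitor Apcdd1 (-2.87) and the feedback inhibitor Nkd1 (-2.52), both known targets of the pathway, and Sostdc1 (-1.76), a secreted antagonist. Sostdc1 (-1.97) and Nkd1 (-1.27) fell from P14 to P28, 2 of 42 where 4.47% of all genes were called. Trachea had 19 of 42 higher than the lung-labelled arrays, where 10.8% of all genes were, including Sostdc1 (3.99) and the secreted Wnt binder Frzb (3.58). In E14.5 skin 7 of 41 were higher than in bladder and 3 lower, where 8.11% and 6% of all genes were. Those higher included the β-catenin target Sp5 (2.67), the polarity gene Celsr1 (2.42) and Apcdd1 (2.31). E18.5 skin had 16 of 41 higher than small intestine and 1 lower, where 8.99% and 10.2% of all genes were. Those higher included Sostdc1 (5.70), the Lgr relative Lgr6 (4.42) and Apcdd1 (4.39). Stomach against esophagus gave Sp5 (1.20) and Sostdc1 (-1.20), 2 of 41 where 7.05% of all genes were called.

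Some members were not called in any comparison. Over the 5 comparisons of Gene ST arrays, 25 of 44 were never called, as were 70.9% of all genes, and 18 of the 25 were ligands. Wnt1, Wnt3, Wnt8a, Wnt16 and Dkk4 were among them, with means that lay between 6.5 and 7.7 in all 9 groups. Over the 7 comparisons within 1 side of the 3' arrays, 10 of 44 were never called, against 63.3% of all genes (Fzd3, Fzd4, Fzd9, Sfrp4, Wnt2b, Wnt4, Wnt5a, Wnt8a, Wnt9b and Wnt16). Wnt5a, called in cornea and trachea, varied within groups there, for example 6.35, 8.27 and 9.31 on the small intestine arrays.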

How the data were processed

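Total RNA of 53 mouse tissue samples was measured on Affymetrix arrays, 27 in the Gene ST table and 26 in the 3' table, with 1 labelling protocol given for all. For each probe set the authors deposited a linear intensity, which per the submitters' processing notes was made with PLIER 2.0 and Affymetrix Expression Console 1.1.1. How arrays were normalized to each other is not stated in these notes. The number of arrays limits the precision.

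Each table was analysed on its own. Values were turned into log2(intensity + 16) and quantile-normalized. Each gene was taken from its brightest probe set, with 35556 and 45101 probe sets in the tables. Members had 45 probe sets in the first and 85 in the second, where 27 members had several. The transcript Fzd10os was not a member. limma 3.58.1 in R 4.3.3 (lmFit and eBayes) was fitted to all groups of a table, with Benjamini-Hochberg adjustment over all named genes and two-sided tests. A call needed a change of at least 2-fold with an adjusted p below 0.05. The fit was also run on simulated data, in which 200 genes had known changes. Skin against bladder at E14.5, skin against small intestine, and bladder, esophagus and stomach were compared after the divide in the 3' table had been seen.

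Any member could be named. Values were given in full for members called, at most the 8 largest in each direction of a comparison, and for the member of each role with the brightest probe set or the highest group mean in each table, which ranks probes and not transcripts. The members, the marker and pathway lists and the naming rule were chosen with earlier results of these data known. Replicate numbers in the labels were checked for pairing. For cornea at P28 and P14 the deviations of same-numbered arrays correlated at 0.133 to 0.242. The main fits of all comparisons, this one included, used no pairs, and a block by number was run as an alternative. Alternatives were values as deposited, a pseudocount of 1, the mean of all probe sets, only the groups compared, genes above the median, the replicate block, each array left out, the first and second E14.5 skin arrays averaged, and the third alone, the last chosen after intestinal genes had been seen on the others.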

Additional observations from a re-analysis of the deposited data

Results flagged for a closer look

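Skin and bladder differed in how 19 of 44 members moved from E14.5 to E16.5 (limma interaction contrast), where 42.2% of all genes differed. This contrast crosses the divide between the 9 arrays that stood apart and the other 17, because E16.5 skin lies on one side and the other 3 groups on the other, so the tissue and the divide cannot be told apart. Values are the change in skin minus the change in bladder, on the log2(intensity + 16) scale. The ligands were Wnt3 at -3.83, Wnt9a at -2.81, Wnt5b at -1.69, Wnt10a at -1.68 and Wnt2 at -1.61, and on the other side Wnt1 at 1.15, Wnt11 at 1.67, Wnt6 at 2.59, Wnt7a at 3.71 and Wnt7b at 4.27. The receptors were Fzd7 at -3.22, Fzd2 at -1.33 and Fzd9 at 1.50. The antagonists were Sfrp1 at -1.99, Sfrp5 at -1.74, Dkk4 at -1.51 and Wif1 at 2.76. Lef1 was at -2.24 and Lgr5 at 2.20. Of the 11 with a second probe set, the second moved the same way for 3. With the third E14.5 skin array alone, 18 members were called, 17 of them among these 19. In that fit the spread comes from the other groups, so it is no replicate check. With the first and second E14.5 skin arrays averaged, 18 were called, and Wnt10a was not. The Wnt10a call was kept in only 6 of 18 other settings.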

How the results depend on the processing

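Of 217 calls of a member in a comparison, 145 were kept under all alternatives in which they could be tested and 72 were lost under at least 1. With only genes above the median, 193 of the 217 could be tested, and calls removed by that filter were not counted as lost. Of 17 counts of called members, 13 stayed within 1.5 times under all alternatives. With only the groups compared in the fit, cornea E15.5 against E14.5 called 2 members and P28 against P14 called 3. Skin E18.5 against E16.5 called 3 with a pseudocount of 1 and 4 with the mean of all probe sets, and stomach against esophagus called 3 with that mean. Leaving out single arrays gave 3 to 6 for cornea E15.5 against E14.5 (3 without the third E14.5 array), 4 to 6 for skin E18.5 against E16.5 (4 without the third E18.5 array) and 3 to 8 for stomach against esophagus (3 without the stomach array labelled 1). The causes of these shifts, the smaller number of arrays among them, were not tested.

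Values that reversed were all across the divide. With the mean of all probe sets, Lef1 was 0.010 between E16.5 and E14.5 skin and 0.22 in the skin minus bladder change, Fzd2 was 2.38 in that change, and Fzd1 (0.55), Fzd2 (2.24) and Rspo2 (0.22) reversed between skin and bladder at E16.5. In each of these cases the second probe set had moved against the brightest. With a pseudocount of 1, Wnt7a was -1.69 between E16.5 and E14.5 skin and -2.36 in the skin minus bladder change. Its brightest and second probe sets had close mean levels, 5.32 and 5.28, and moved by 3.58 and -1.20 between these skin groups. The first of them lay at the floor on all E14.5 skin arrays and had a mean of 7.58 in E16.5 skin. It cannot give a fall between these groups, so with a pseudocount of 1 another probe set was taken as brightest.

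With the replicate block, pairing arrays by their label number, all 47 calls tested were kept and the counts were 11, 5, 1, 9, 15 and 6, as without it. Same-numbered stomach and esophagus arrays correlated at 0.064 to 0.130, each best with its own number.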
